A study of Mus musculus with 6 samples.

Results

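The genes described here encode the nuclear subunits of respiratory complexes III and IV and of ATP synthase, with cytochrome c, in the mouse heart. They are the protein-coding genes whose symbols begin with Uqcr, Cox4 to Cox8 or Atp5, together with Cyc1 and Cycs. The rule found 45 genes of 36757 in all, of which 9 belong to complex III, 17 to complex IV and 18 to ATP synthase, and 1 is cytochrome c. RNA was sequenced from the hearts of 6 mice aged 32 weeks. In 3 mice both ApoE and Timp3 were deleted (ApoE-/- Timp3-/-, libraries 4, 5 and 6), and 3 littermate controls lacked ApoE alone (ApoE-/-, libraries 1, 2 and 3). All 6 animals therefore lack apolipoprotein E, a lipoprotein ligand whose loss leads to atherosclerosis in mice, and the comparison asks what the added loss of TIMP3, an inhibitor of metalloproteinases, does to the heart. The sources used here do not give the sex of the mice, the exons that each deletion removes, or how the libraries relate beyond the word littermates, so a p-value here speaks of the spread among these 6 libraries alone.

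Complex III takes electrons from ubiquinol and hands them to cytochrome c, and complex IV passes them from cytochrome c to oxygen. Both move protons across the inner mitochondrial membrane, and ATP synthase lets the protons flow back to make ATP, which the beating heart uses without pause. Complex IV exists in tissue forms: heart and skeletal muscle of rodents use Cox6a2, Cox7a1 and Cox8b in place of the more widely expressed Cox6a1, Cox7a2 and Cox8a. The subunits that mitochondrial DNA encodes, and Cox4i1, were not analysed here.

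The deposited values are FPKM, sequenced fragments scaled to transcript length and library size, summed over the transcripts given to a gene. The files hold no counts of fragments; transcript coverage multiplied by length came to between 683 and 910 megabases of aligned sequence in the ApoE-/- Timp3-/- libraries and between 654 and 1339 in the ApoE-/- libraries. The 6 defining markers of heart muscle cells summed to between 16131 and 22013 FPKM in the ApoE-/- Timp3-/- libraries and between 14884 and 16594 FPKM in the ApoE-/- libraries. Timp3 itself was at 20.2, 28.0 and 29.6 FPKM in the ApoE-/- Timp3-/- libraries and at 52.1, 38.0 and 36.3 FPKM in the ApoE-/- libraries, a log2 difference of -0.61 (limma, adjusted p = 0.29), so RNA of the gene was still counted in the mutants. Several libraries stood apart in cells other than heart muscle. Library 4 (ApoE-/- Timp3-/-) had 12517 FPKM summed over 3 red blood cell markers, against 104 to 1206 in the other 5 libraries. Library 1 (ApoE-/-) had 31.6 FPKM of the brown fat gene Ucp1, against at most 0.0398 elsewhere, and its 4 lung markers summed to 101 FPKM, against at most 0.118, with 1 of them, Sftpb, at 0 throughout. The 5 atrial markers summed to 177, 873 and 1456 FPKM in the ApoE-/- Timp3-/- libraries and to 1699, 815 and 113 FPKM in the ApoE-/- libraries. These markers did not go together in every library. In library 2 Nppa alone was at 802 FPKM of that sum and Myl7 at 2.09, while library 5 had Myl7 at 173 FPKM and Nppa at 491. In whole hearts, fewer cells of a type and less RNA per cell cannot be told apart.

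Many of these genes have near-identical copies elsewhere in the genome, most of them processed pseudogenes, which are DNA copies of a spliced mRNA. Cycs shows how close such copies can be. The first 120 coding bases of Cycs and of 3 of its copies are printed here from the GENCODE M21 transcripts, because the reads of a gene and of such a copy are hard to tell apart; capitals mark bases that differ from Cycs, and positions are counted from 1 at the A of the start codon.
Cycs: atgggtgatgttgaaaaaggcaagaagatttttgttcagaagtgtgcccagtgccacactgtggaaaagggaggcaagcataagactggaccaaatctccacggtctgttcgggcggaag
Gm10053: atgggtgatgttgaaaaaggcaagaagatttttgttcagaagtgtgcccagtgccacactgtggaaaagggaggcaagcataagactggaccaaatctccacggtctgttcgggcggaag
Gm10108: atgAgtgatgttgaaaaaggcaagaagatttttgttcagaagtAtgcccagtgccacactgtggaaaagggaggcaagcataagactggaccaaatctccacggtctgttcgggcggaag
Gm13772: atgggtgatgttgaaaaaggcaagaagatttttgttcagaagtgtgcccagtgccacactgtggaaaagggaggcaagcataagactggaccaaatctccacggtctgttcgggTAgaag
Gm10053, annotated as protein-coding on chromosome 19, had 0 differences from Cycs over 315 coding bases. Gm10108 on chromosome 5 had 2, G4A and G44A, and Gm13772 on chromosome 2 had 2, C115T and G116A.

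A search of the GENCODE transcripts at 95% identity or more over at least 80% of the copy found 36 copies of 18 of the 45 genes, 33 of them annotated as processed pseudogenes and 3 as protein-coding. The other 27 genes had none. In 10 genes the copies held more than 50% of the aligned bases in every library: the share was 91.5% to 94.3% for Atp5l with 7 copies, 76.7% to 86.3% for Cycs with 4, 78.6% to 86.2% for Uqcrb with 3, 76.4% to 83.0% for Cox7c with 2, 72.4% to 80.5% for Atp5g2 with 2 and 68.2% to 75% for Atp5k with 1. None of the 6 isoform genes Cox6a1, Cox6a2, Cox7a1, Cox7a2, Cox8a and Cox8b had such a copy. A level or difference of a gene with copies is therefore uncertain, since the sources used here do not give how reads were divided between them.

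**Figure D1:**
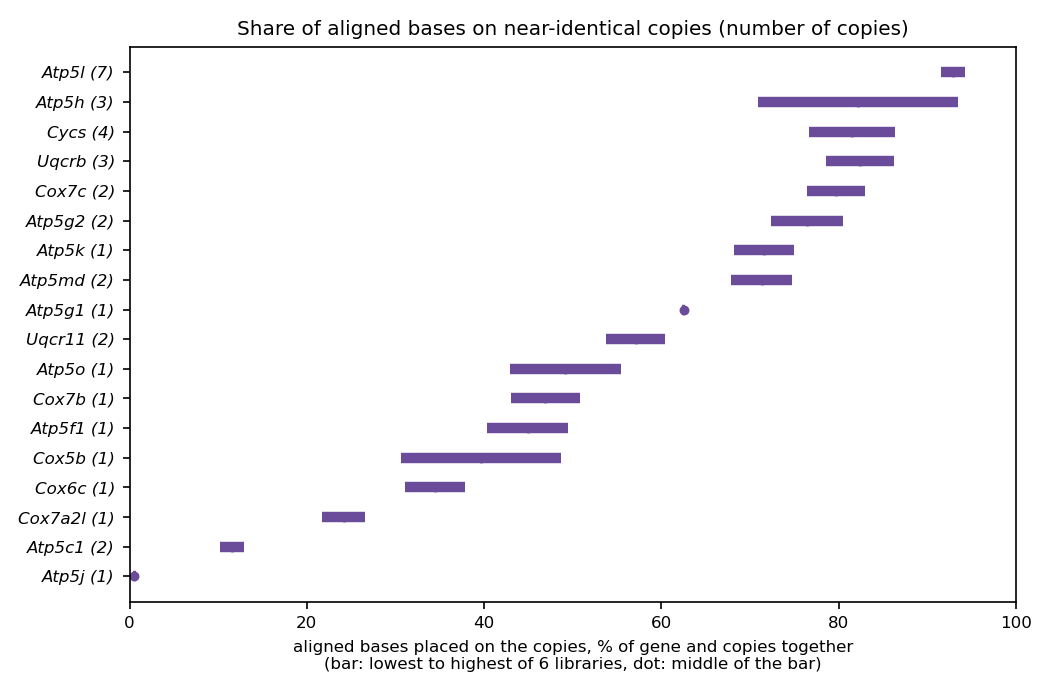
Share of aligned bases placed on near-identical copies (x axis, percent of the bases of gene and copies together) for the 18 genes with copies; bars run from the lowest to the highest of the 6 libraries, dots mark the middle of each bar and the number of copies stands in brackets. The shares run from under 1% for Atp5j to over 90% for Atp5l, and 10 genes lie above 50% in every library. Assembled transcripts shorter than 300 nt are left out.

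In complex III the 9 genes lay in a narrow band of levels, with means over the 6 libraries between 92.9 FPKM for Uqcrb and 295 FPKM for Uqcrq. Both are small subunits linked to ubiquinone binding. Uqcrq was at 374, 231 and 235 FPKM in the ApoE-/- Timp3-/- libraries and at 294, 352 and 280.5 FPKM in the ApoE-/- libraries. Uqcrb was at 97.7, 86.5 and 99.9 FPKM in ApoE-/- Timp3-/- hearts and at 110.2, 70.8 and 92.5 FPKM in ApoE-/- hearts. For both genes the groups overlapped, and library 4 was the highest of the 6 for Uqcrq.

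The core and electron-carrying subunits of complex III had levels close to each other. Uqcrc1, a core protein related to mitochondrial processing peptidases, was at 316, 227 and 238 FPKM in ApoE-/- Timp3-/- hearts and at 238, 262 and 219.9 FPKM in ApoE-/- hearts. Uqcrc2, the other core protein, was at 359, 227 and 254 FPKM in ApoE-/- Timp3-/- hearts and at 253, 309 and 215 FPKM in ApoE-/- hearts. Cyc1, the haem subunit that gives its electron to cytochrome c, was at 262, 209.6 and 224 FPKM in ApoE-/- Timp3-/- hearts and at 261, 291 and 244 FPKM in ApoE-/- hearts. Each of these groups overlapped, with library 4 the highest for both core proteins and library 2 (ApoE-/-) the highest for Cyc1. Uqcrfs1, the Rieske iron-sulfur protein, ranged from 199 to 226 FPKM in ApoE-/- Timp3-/- hearts and from 216 to 254 FPKM in ApoE-/- hearts. The small subunits Uqcrh (the hinge protein), Uqcr10 and Uqcr11 ranged from 198 to 261, 153 to 253 and 79.7 to 138 FPKM in ApoE-/- Timp3-/- hearts, against 200 to 241, 161 to 209 and 103 to 127 FPKM in ApoE-/- hearts.

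None of the 9 complex III genes passed the test between the genotypes. Of limma's log2 differences, ApoE-/- Timp3-/- minus ApoE-/- on log2(scaled FPKM + 1), 5 were above 0 and 4 below, with a median of 0.07. The 4 genes with the smallest p were Uqcrc1 (0.18, SE 0.16, adjusted p = 0.71), Uqcrb (0.15, SE 0.16, adjusted p = 0.75), Uqcrc2 (0.17, SE 0.20, adjusted p = 0.77) and Cyc1 (-0.12, SE 0.14, adjusted p = 0.78). With 3 libraries a group, the 95% intervals ran from -0.22 to 0.52 for Uqcrb and from -0.46 to 0.22 for Cyc1. Differences within those bounds were compatible with the values. The bounds are not limits of detection, since the threshold was adjusted over 11376 genes. The value of Uqcrb rests on which assembled pieces are counted: library 2 held a further 325 FPKM in a transcript shorter than 300 nt, and with pieces of any length the difference was -0.67.

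**Figure D2:**
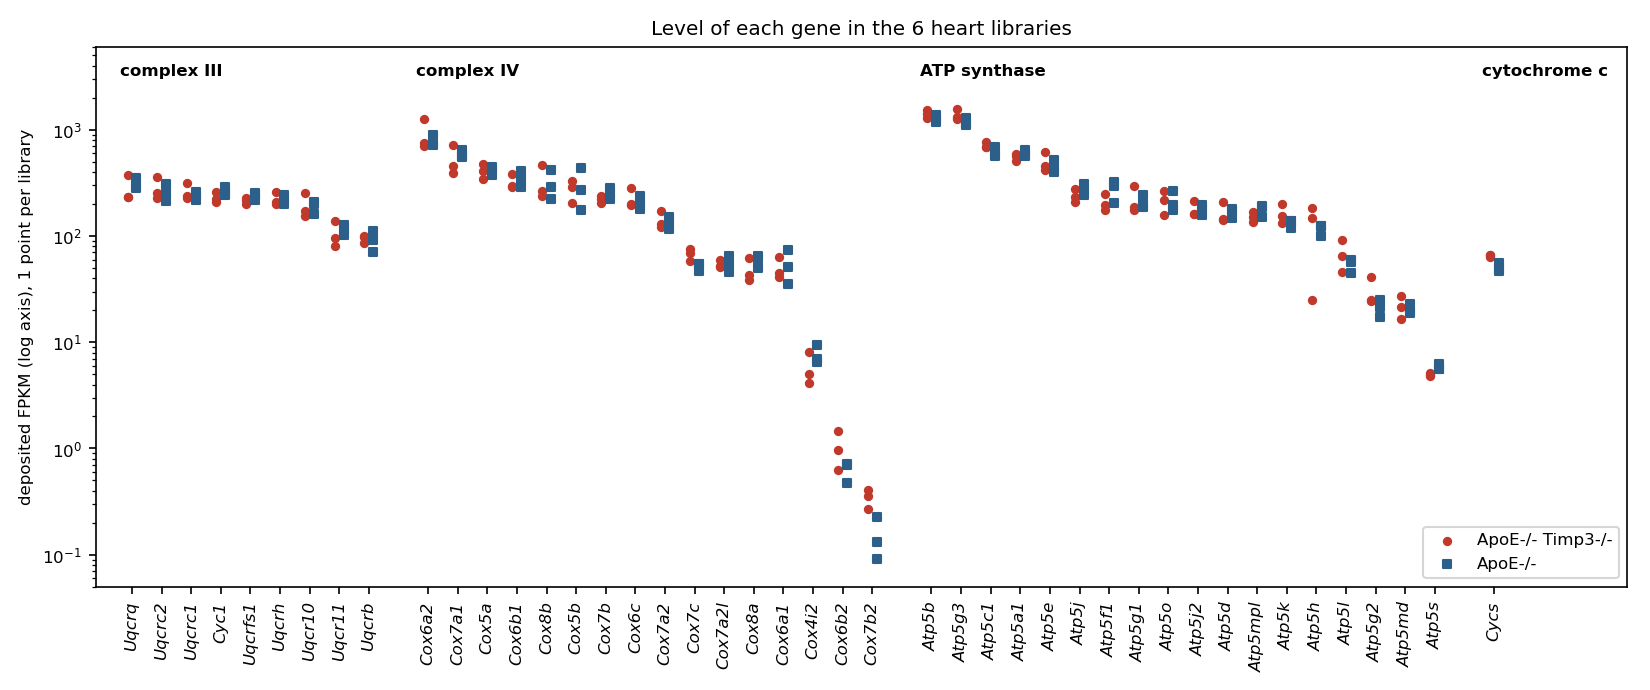
Deposited FPKM (y axis, log scale) of the 44 genes with a value above 0 (x axis), by complex and in order of the mean level, with 1 point per library: ApoE-/- Timp3-/- as red circles on the left of each pair and ApoE-/- as blue squares on the right. Complex III lies within a narrow band, complex IV and ATP synthase each span over 100-fold, and the groups overlap for most genes.

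Complex IV covered a far wider range, with Cox6a2 at the top, at a mean of 842 FPKM, followed by Cox7a1 at 553 FPKM, Cox5a at 413 FPKM and Cox6b1 at 335 FPKM. Cox5a, a subunit on the matrix side, ranged from 346 to 473 FPKM in ApoE-/- Timp3-/- hearts and from 378 to 445 FPKM in ApoE-/- hearts. Cox6b1, on the face where cytochrome c docks, was at 384, 289 and 296 FPKM in ApoE-/- Timp3-/- hearts and at 341, 410 and 288 FPKM in ApoE-/- hearts, a log2 difference of -0.02 (SE 0.18, adjusted p = 0.97), and of 0.17 with assembled pieces of any length. Cox5b, the zinc-binding subunit, ranged from 203 to 328 FPKM in ApoE-/- Timp3-/- hearts and from 174 to 433 FPKM in ApoE-/- hearts, and part of its reads in 3 libraries lay in assembled pieces under 300 nt. Cox6c and Cox7b, small membrane subunits, ranged from 196 to 280.4 and from 204 to 240.2 FPKM in ApoE-/- Timp3-/- hearts, against 180 to 239 and 224 to 285 FPKM in ApoE-/- hearts.

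At the low end stood isoforms known from other organs. Cox4i2, the form of subunit 4 abundant in lung, was at 8.17, 4.11 and 4.97 FPKM in ApoE-/- Timp3-/- hearts and at 6.99, 9.42 and 6.47 FPKM in ApoE-/- hearts, a log2 difference of -0.32 (SE 0.23, adjusted p = 0.63). Leaving out single libraries moved the difference to between -0.54 (library 4 left out) and -0.17 (library 2 left out). In library 3, 42.8% of the aligned bases of Cox4i2 lay in a piece under 300 nt, at 14.5 FPKM, and with pieces of any length the difference was -0.85. The groups overlapped through library 4. Library 1, the library with lung markers, was at 6.99 FPKM, and the part of lung tissue in these values was not tested. Cox6b2, a form found in testis and sperm, was at 0.633 to 1.47 FPKM in ApoE-/- Timp3-/- hearts and at 0.475 to 0.719 FPKM in ApoE-/- hearts. Cox7b2 was at 0.27 to 0.409 FPKM in ApoE-/- Timp3-/- hearts and at 0.0905 to 0.226 FPKM in ApoE-/- hearts, and Cox8c, another testis form, was listed at 0 in all 6 libraries. These 3 were below the mean of 1 FPKM required for testing.

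Cox7a2l, which tethers complex IV to complex III in supercomplexes, was at 59.8, 52.6 and 50.6 FPKM in ApoE-/- Timp3-/- hearts and at 53.6, 64.2 and 45.8 FPKM in ApoE-/- hearts. Its log2 difference was 0.08 (SE 0.16, adjusted p = 0.89), and its groups overlapped. Cox7c, a small membrane subunit, was at 75, 58.3 and 69.2 FPKM in ApoE-/- Timp3-/- hearts and at 54.2, 54.3 and 46.7 FPKM in ApoE-/- hearts. All 3 ApoE-/- Timp3-/- libraries lay above all 3 ApoE-/- libraries. After scaling, Cox7c averaged 69.0 ± 4.15 in ApoE-/- Timp3-/- hearts and 50.4 ± 3.78 in ApoE-/- hearts (SD, n = 3 each), a log2 difference of 0.45 (SE 0.12) that missed the threshold (limma, adjusted p = 0.26). Its copy Gm12338, a pseudogene that matches it at 100% identity, was at 485, 277 and 297 FPKM in ApoE-/- Timp3-/- hearts and at 305, 312 and 257 FPKM in ApoE-/- hearts, with overlap between the groups. Its other copy, Gm10012, was at 175, 137 and 131 FPKM in ApoE-/- Timp3-/- hearts and at 105, 107 and 86.3 FPKM in ApoE-/- hearts, without overlap. With the reads of both copies added, the log2 difference of Cox7c was 0.41 (limma, adjusted p = 0.42), and scaled by genes of up to 1000 nt it was 0.22.

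The rule of the comparison pairs heart and other isoforms of 3 subunits, and in every library the heart form was the more abundant of each pair. Cox6a2 made up 94.1% to 95.2% of Cox6a FPKM in ApoE-/- Timp3-/- hearts and 90.9% to 95.3% in ApoE-/- hearts. Cox7a1 made up 76.2% to 80.9% of the Cox7a1 and Cox7a2 FPKM in ApoE-/- Timp3-/- hearts and 78.9% to 82.5% in ApoE-/- hearts. Cox8b made up 86.0% to 88.0% of the Cox8b and Cox8a FPKM in ApoE-/- Timp3-/- hearts and 77.3% to 87.5% in ApoE-/- hearts. The depositors' files place Cox6a2, Cox7a1 and Cox8b all on chromosome 7, at chr7:135348950-135349880 (minus strand), chr7:30969190-30971047 (plus strand) and chr7:148084842-148086345 (minus strand) in NCBIM37. Cox6a1 lies at chr5:115795651-115798990, Cox7a2 at chr9:79603048-79607660 and Cox8a at chr19:7289648-7292106, all on the minus strand.

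Cox6a2, the heart form of a subunit thought to tune the enzyme to ATP, was at 1261, 707 and 743 FPKM in ApoE-/- Timp3-/- hearts and at 738, 890.5 and 715 FPKM in ApoE-/- hearts. Cox6a1, its widely expressed partner, was at 63.2, 44.4 and 41.5 FPKM in ApoE-/- Timp3-/- hearts and at 73.6, 50.8 and 35.5 FPKM in ApoE-/- hearts. The ratio Cox6a2/Cox6a1 was 19.96, 15.9 and 17.9 in ApoE-/- Timp3-/- hearts and 10.03, 17.5 and 20.1 in ApoE-/- hearts. Library 1 had by far the lowest ratio, and the other 5 libraries lay between 15.9 and 20.1. On the log2 scale the ratio averaged 4.16 ± 0.16 in ApoE-/- Timp3-/- hearts and 3.93 ± 0.53 in ApoE-/- hearts (SD, n = 3 each), a difference of 0.23 (exact permutation test, two-sided, p = 0.70, adjusted over the 3 ratios 0.70). Without library 1 the difference was -0.07.

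Cox7a1, the heart form of the subunit at the dimer and supercomplex face, was at 723, 387 and 453 FPKM in ApoE-/- Timp3-/- hearts and at 562, 641 and 553 FPKM in ApoE-/- hearts. Cox7a2 was at 171, 121 and 130.1 FPKM in ApoE-/- Timp3-/- hearts and at 151, 139 and 117 FPKM in ApoE-/- hearts. The ratio Cox7a1/Cox7a2 was 4.22, 3.21 and 3.48 in ApoE-/- Timp3-/- hearts and 3.73, 4.6 and 4.71 in ApoE-/- hearts. Libraries 5 and 6 had the lowest ratios, and library 4 lay above library 1, so the groups overlapped. The mean log2 ratio was 1.85 ± 0.20 in ApoE-/- Timp3-/- hearts and 2.11 ± 0.18 in ApoE-/- hearts (SD, n = 3 each), a difference of -0.26 (exact permutation test, two-sided, p = 0.20, adjusted over the 3 ratios 0.60). Scaling of whole libraries, filters and weights cannot change a ratio within a library, so most alternatives say nothing about it. Leaving out single libraries gave -0.37 (library 4 left out) to -0.17 (library 5 left out). The difference was -0.48 without libraries 1 and 4 together and -0.23 with quantile normalization.

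Cox8b, the heart form of a small membrane subunit, which brown fat also expresses, was at 460.4, 238 and 265 FPKM in ApoE-/- Timp3-/- hearts and at 221, 419.7 and 291 FPKM in ApoE-/- hearts. Cox8a was at 62.5, 38.4 and 43.2 FPKM in ApoE-/- Timp3-/- hearts and at 64.8, 60.2 and 49.4 FPKM in ApoE-/- hearts. The ratio Cox8b/Cox8a was 7.36, 6.21 and 6.15 in ApoE-/- Timp3-/- hearts and 3.41, 6.97 and 5.90 in ApoE-/- hearts. Library 1 was again the lowest and library 4 the highest. The mean log2 ratio was 2.71 ± 0.15 in ApoE-/- Timp3-/- hearts and 2.38 ± 0.54 in ApoE-/- hearts (SD, n = 3 each), a difference of 0.33 (exact permutation test, two-sided, p = 0.40, adjusted over the 3 ratios 0.60). Without library 1 the difference in log2 ratio Cox8b/Cox8a was 0.03, and it was between 0.25 and 0.55 without each of the others. In library 1 alone, 32.7% of the aligned bases of Cox8b lay in a transcript shorter than 300 nt, and counted by aligned bases the difference was 0.01. The values of Cox8a included assembled transcripts in libraries 2 (15.7 FPKM) and 3 (25.3 FPKM). On reference transcripts alone the difference in log2 ratio Cox8b/Cox8a was -0.16.

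With 3 libraries against 3, the exact permutation test could not give a p below 0.1 for any of the 3 ratios. In limma's test of the single genes, the log2 differences were 0.24 for Cox6a2 (SE 0.24, adjusted p = 0.73), -0.14 for Cox7a1 (SE 0.23, adjusted p = 0.84) and 0.11 for Cox8b (SE 0.33, adjusted p = 0.93). Without library 4 they were 0.01 for Cox6a2, -0.37 for Cox7a1 and -0.14 for Cox8b, and without library 5 that of Cox7a1 was -0.01. The partners had log2 differences of 0.01 for Cox6a1 (SE 0.22, adjusted p = 0.99), 0.11 for Cox7a2 (SE 0.14, adjusted p = 0.79) and -0.22 for Cox8a (SE 0.17, adjusted p = 0.65). Library 1, with the lowest ratios of Cox6a and Cox8, was the library with Ucp1 and lung markers. The 5 white fat markers summed to between 1.06 and 24.0 FPKM in ApoE-/- Timp3-/- hearts and between 3.07 and 147 FPKM in ApoE-/- hearts. The 3 brown fat markers summed to between 5.23 and 8.59 FPKM in ApoE-/- Timp3-/- hearts and between 5.51 and 58.1 FPKM in ApoE-/- hearts. Both sums were highest in library 1; their part in the ratios was not tested.

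**Figure D3:**
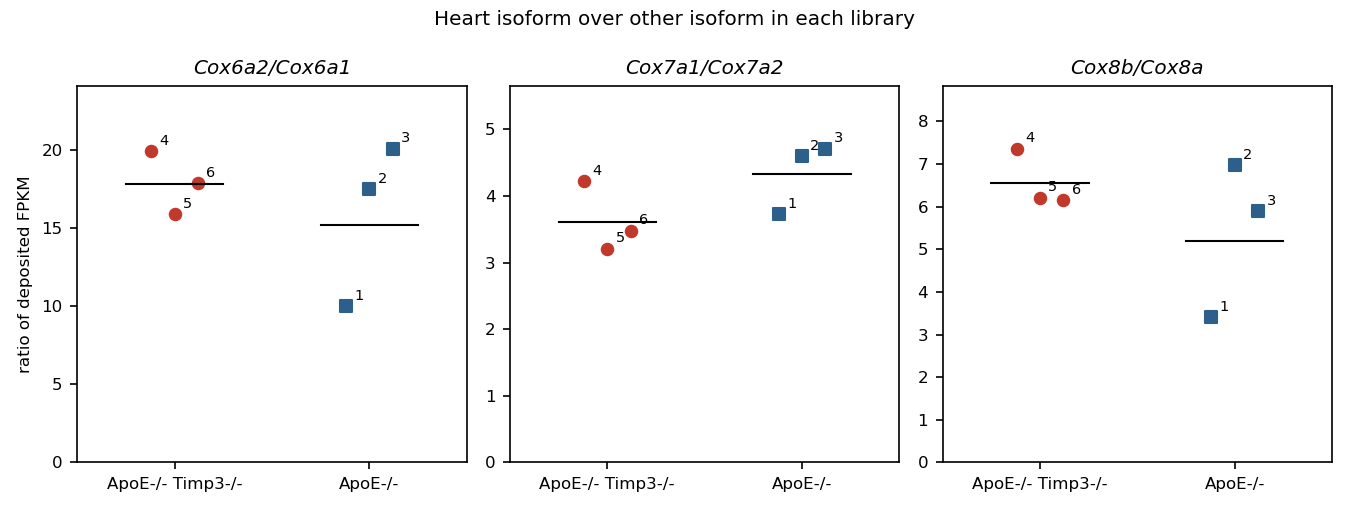
Ratio of the heart isoform to the other isoform (y axis, deposited FPKM over deposited FPKM) in each library for 3 subunits of complex IV, with ApoE-/- Timp3-/- as red circles on the left and ApoE-/- as blue squares on the right; numbers name the library and lines are geometric means. The groups overlap in each panel, and library 1 lies lowest for Cox6a2/Cox6a1 (10.03) and Cox8b/Cox8a (3.41).

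The promoters of the isoform pairs differed in sequence. RefSeq's table of 250 bases before each gene's start (GRCm38.p6) held 5 of these 6 genes, without Cox6a2. The dinucleotide CG occurred 1 time in the promoter of Cox8b and 4 times in that of Cox7a1, against 26 times for Cox6a1, 14 times for Cox7a2 and 11 times for Cox8a. The median was 6 over 27025 promoters and 14 over the 35 genes of the respiratory set with an entry. Cox8b and Cox6a1 are shown because they were the 2 of the 5 with a match to a searched motif, which stands in capitals.
Cox8b, chr7:140900447-140900696, minus strand: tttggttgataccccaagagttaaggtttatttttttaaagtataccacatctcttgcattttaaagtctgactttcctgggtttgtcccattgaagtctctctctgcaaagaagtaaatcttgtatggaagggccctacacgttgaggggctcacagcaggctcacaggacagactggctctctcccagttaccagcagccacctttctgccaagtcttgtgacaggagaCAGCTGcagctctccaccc
Cox6a1, chr5:115348959-115349208, minus strand: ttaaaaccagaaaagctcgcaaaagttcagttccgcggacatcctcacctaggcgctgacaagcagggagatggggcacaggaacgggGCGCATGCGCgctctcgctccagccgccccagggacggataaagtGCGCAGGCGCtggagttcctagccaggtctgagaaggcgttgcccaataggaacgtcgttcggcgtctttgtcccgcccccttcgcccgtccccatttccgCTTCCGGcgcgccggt
Cox8b held CAGCTG, an E-box that muscle regulatory factors can bind. Cox6a1 held the NRF1 motif (GCGC, any base, then TGCGC), which its second match carries on the other strand, and the ETS motif CCGGAAG, also on the other strand.

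Both strands of the same 250 bases were searched in all promoters. NRF1 and GABPA, which binds the ETS motif, are known activators of nuclear genes for mitochondrial proteins. The NRF1 letters were found in 4 of the 35 genes (11.4%; Atp5g2, Atp5h, Atp5k and Cox6a1), against 3.86% of all promoters. CCGGAAG was found in 7 of 35 (20%), against 7.05% of all promoters. AAGGTCA, the core site of oestrogen-related receptors, was found in 2 of 35 (5.71%), against 4.05%, CAGCTG in 2 (5.71%), against 12.8%, the MEF2 letters (CTA, any 4 bases, then TAG) in 1 (2.86%), against 3.23%, and AAGATGGCG of YY1 in 0, against 0.607%. The NRF1 and ETS letters contain CG, which had a median of 14 in these 35 promoters against 6 over all promoters. No promoters matched for CG were compared, so the part of CG content in these shares was not tested. A match is a description of these letters and not evidence of binding.

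ATP synthase held the most abundant transcripts of the set. Atp5b, the catalytic beta subunit, led with a mean of 1342 FPKM and Atp5g3, which encodes the membrane ring subunit c, followed with 1281 FPKM. Atp5b was at 1536, 1282 and 1394 FPKM in ApoE-/- Timp3-/- hearts and at 1384, 1272 and 1185 FPKM in ApoE-/- hearts. On the scaled values its 3 ApoE-/- Timp3-/- libraries, from 1379 to 1502, lay above its 3 ApoE-/- libraries, from 1187 to 1288, although the deposited FPKM overlapped. Atp5c1, the gamma subunit that turns inside the catalytic head, was at 759, 693 and 694 FPKM in ApoE-/- Timp3-/- hearts and at 596, 691 and 571 FPKM in ApoE-/- hearts. Its 3 ApoE-/- Timp3-/- values lay above the 3 ApoE-/- values, library 2 being close behind, and after scaling the groups met. Its log2 difference was 0.29 (SE 0.16, adjusted p = 0.53).

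The other subunits of the catalytic head were Atp5a1 (alpha), Atp5d (delta) and Atp5e (epsilon). They ranged from 507 to 591, 142 to 210 and 414 to 610.2 FPKM in ApoE-/- Timp3-/- hearts, against 563 to 646, 147 to 178 and 398 to 518 FPKM in ApoE-/- hearts. In every library Atp5b was the highest and Atp5d the lowest of the 5 head subunits, and Atp5b lay above Atp5a1, although the enzyme holds both in equal number.

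Subunit c is encoded by Atp5g1, Atp5g2 and Atp5g3, whose proteins differ in the import signal that is cut off. Atp5g3 was at 1550.2, 1318 and 1267 FPKM in ApoE-/- Timp3-/- hearts and at 1143, 1302 and 1108 FPKM in ApoE-/- hearts, a log2 difference of 0.29 (SE 0.17, adjusted p = 0.55). Atp5g1 was at 293, 175 and 188 FPKM in ApoE-/- Timp3-/- hearts and at 202, 245 and 187 FPKM in ApoE-/- hearts, with overlapping groups. Atp5g2 was at 40.8, 24.5 and 24.9 FPKM in ApoE-/- Timp3-/- hearts and at 21.3, 24.7 and 17.1 FPKM in ApoE-/- hearts. Library 4 stood highest for each of the 3 genes. After scaling, Atp5g2 averaged 30.6 ± 8.13 in ApoE-/- Timp3-/- hearts and 20.5 ± 3.54 in ApoE-/- hearts (SD, n = 3 each), a log2 difference of 0.54 (SE 0.21) that missed the threshold (limma, adjusted p = 0.38), and the difference was 0.34 without library 4 and 0.27 without libraries 1 and 4. With the reads of both copies added it was 0.77 (limma, adjusted p = 0.35). Its copies Gm10175 and Gm10231, both at 100% identity, were at 127, 59.9 and 64.4 and at 78.7, 41.0 and 46.7 FPKM in ApoE-/- Timp3-/- hearts, against 48.5, 55.2 and 43.9 and 33.4, 35.4 and 26.6 FPKM in ApoE-/- hearts.

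The peripheral stalk, which holds the head still, is built from Atp5f1 (subunit b), Atp5h (subunit d), Atp5j (coupling factor 6) and Atp5o (the oligomycin-sensitivity subunit). Atp5f1 was at 246, 174 and 197 FPKM in ApoE-/- Timp3-/- hearts and at 320.3, 206 and 293 FPKM in ApoE-/- hearts, with overlapping groups. Atp5j ranged from 209 to 277 FPKM in ApoE-/- Timp3-/- hearts and from 244 to 307 FPKM in ApoE-/- hearts, and Atp5o from 156 to 265 FPKM in ApoE-/- Timp3-/- hearts and from 176 to 266 FPKM in ApoE-/- hearts. Atp5h was at 184, 146 and 25.1 FPKM in ApoE-/- Timp3-/- hearts and at 123, 125 and 100.1 FPKM in ApoE-/- hearts. The low value of library 6 goes with the way its transcripts were assembled: 68.9% of the aligned bases of Atp5h in that library lay in a piece shorter than 300 nt, at 119 FPKM, and in the other 5 libraries 0% did.

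The membrane part also holds small subunits that help ATP synthase pair into dimers. Atp5k, subunit e, was at 201, 133 and 155 FPKM in ApoE-/- Timp3-/- hearts and at 137, 137 and 119 FPKM in ApoE-/- hearts. Its log2 difference was 0.36 (SE 0.15, adjusted p = 0.40), 0.24 without library 4, 0.20 with assembled pieces of any length and 0.23 with the reads of its copy added. Library 5 lay below 2 ApoE-/- libraries in deposited FPKM and above them after scaling. Atp5l, subunit g, ranged from 45.6 to 91.1 FPKM in ApoE-/- Timp3-/- hearts and from 44.4 to 59.9 FPKM in ApoE-/- hearts. The lowest value of each group was that of library 6 and of library 2. In these, 33.9% and 32.7% of its aligned bases lay in pieces under 300 nt, which were not counted. Atp5j2, subunit f, ranged from 160.2 to 215 FPKM in ApoE-/- Timp3-/- hearts and from 157 to 197 FPKM in ApoE-/- hearts. Atp5md and Atp5mpl, small proteins bound to the enzyme, ranged from 16.7 to 27.5 and from 135 to 169 FPKM in ApoE-/- Timp3-/- hearts, against 18.7 to 22.8 and 152 to 190 FPKM in ApoE-/- hearts. Atp5s, a coupling factor that is not a core subunit, was at 4.95, 4.78 and 5.13 FPKM in ApoE-/- Timp3-/- hearts and at 6.30, 5.60 and 5.60 FPKM in ApoE-/- hearts, the lowest level of the 18 genes. Here all 3 ApoE-/- Timp3-/- libraries were below all 3 ApoE-/- libraries, also after scaling.

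Atp5md is also a case where the choice of transcript sets the result. Its reference transcript was listed at 0 in all 3 ApoE-/- Timp3-/- libraries and at 9, 11.2 and 6 FPKM in the ApoE-/- libraries. Assembled transcripts given to the same gene came to 27.5, 16.7 and 21.3 FPKM in the ApoE-/- Timp3-/- libraries and to 13.8, 8.35 and 12.7 FPKM in the ApoE-/- libraries. Library 1 held 2 of them, and those of different libraries were not matched to each other. Summed over reference and assembled transcripts, the log2 difference was 0.14 and the groups overlapped. An assembled transcript of any length was listed in at least 1 library for 22 of the 44 genes with a value, 8 of them with pieces under 300 nt, which were not counted, and 22 had all their bases in reference transcripts in every library.

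Cycs, cytochrome c itself, carries electrons between the complexes III and IV. Cycs was at 66.5, 63.1 and 65.9 FPKM in ApoE-/- Timp3-/- hearts and at 55.2, 46.7 and 49.1 FPKM in ApoE-/- hearts. The 3 ApoE-/- Timp3-/- libraries lay close together and above all 3 ApoE-/- libraries. After scaling, Cycs averaged 66.9 ± 3.04 in ApoE-/- Timp3-/- hearts and 49.0 ± 3.73 in ApoE-/- hearts (SD, n = 3 each), a log2 difference of 0.44 (SE 0.12, 95% interval 0.17 to 0.71) that missed the threshold (limma, adjusted p = 0.26). Leaving out any library left it between 0.41 and 0.50. In library 4 the value was made of 47.6 FPKM in reference transcripts and 18.9 FPKM in an assembled transcript, so reference transcripts alone overlapped between the groups. On those alone the log2 difference of Cycs was 0.27 (limma, adjusted p = 0.68). It was 0.47 on the strongest transcript and 0.21 scaled by genes of up to 1000 nt. The near-identical Gm10053 printed above was at 143, 136 and 139.6 FPKM in ApoE-/- Timp3-/- hearts and at 138, 113 and 103 FPKM in ApoE-/- hearts, and Gm13772 at 525, 481 and 679.8 FPKM in ApoE-/- Timp3-/- hearts and at 657, 509 and 396 FPKM in ApoE-/- hearts, both with overlap. Gm10108 was at 206, 163 and 193 FPKM in ApoE-/- Timp3-/- hearts and at 162, 136 and 141 FPKM in ApoE-/- hearts, without overlap. The groups overlapped for Gm11625, the copy whose sequence is not printed, at 10.6 to 16.3 FPKM in ApoE-/- Timp3-/- hearts and 11.6 to 15 FPKM in ApoE-/- hearts. With the reads of all 4 copies added, the log2 difference was 0.21 (adjusted p = 0.78).

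Taking the complexes side by side, 42 genes were tested among 11376 and 0 had an adjusted p under 0.05 in limma; over all genes 0.044% did. At an unadjusted p under 0.05, 4 were higher in ApoE-/- Timp3-/- hearts, against 6.94% of all genes, and 0 were lower, against 5.2%. These counts depended on the scaling. Scaled by genes of up to 1000 nt, 1 was higher and 12 lower, but the median log2 difference over all genes was then -0.19. With the same total FPKM 1 was higher and 8 lower, and that median was -0.16. With quantile normalization (median over all genes -0.01) and without libraries 1 and 4 (0.00), 2 were higher and 6 lower. The shares of all genes past the limit under these settings were not worked out, so these counts cannot be read as particular to the respiratory genes. In the reported fit, 403 of 1705 other genes of up to 1000 nt were higher at that limit and 42 were lower. The 4 higher respiratory genes, Cycs, Cox7c, Atp5g2 and Atp5k, all have near-identical copies that hold most of the bases. On the scaled values the groups did not overlap for 5 genes that were higher, against 9.97% of all genes, and for 2 that were lower, against 9.2%. The 5 were the same 4 and Atp5b, and the 2 were Atp5s and Cox7b, the last 3 being named after their values were seen. The scaled values of Atp5g2 all but met, the lowest ApoE-/- Timp3-/- library and the highest ApoE-/- library both being at 24.6.

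Of the log2 differences, 27 of 42 were above 0, against 48.8% over all genes. Among other genes of up to 1000 nt, 1195 of 1705 were above 0. The count was 229 of 296 for other genes with a mean of at least 100 FPKM and 99 of 115 for those with both traits. The median was 0.07 over the 42 genes and -0.01 over all genes. It was 0.07 for complex III (5 of 9 above 0), 0.04 for complex IV (9 of 14) and 0.08 for ATP synthase (12 of 18), so the complexes differed from each other by at most 0.04. Among the 24 tested genes without a copy it was 0.04, with 14 above 0, and among the 18 with a copy 0.12, with 13 above 0. The sign of these medians depended on the scaling and on single libraries: over the 42 genes the median was -0.11 with quantile normalization, -0.12 where all libraries had the same total FPKM (all genes -0.16), -0.16 where libraries were scaled by genes of up to 1000 nt (all genes -0.19), -0.04 without library 4 and -0.02 without library 1. The count above 0 was then 11, 10, 8, 19 and 18 of 42, in that order of settings.

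**Figure D4:**
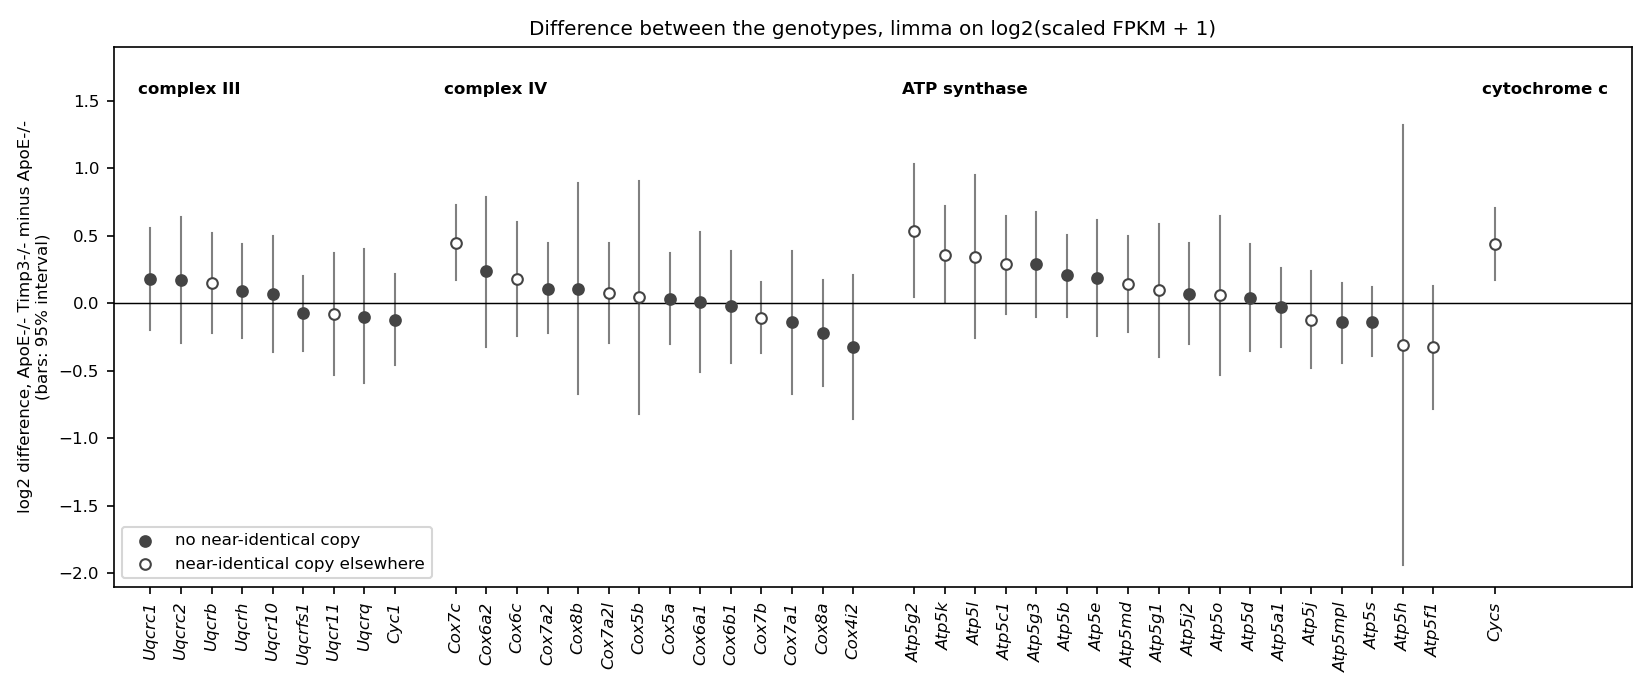
Log2 difference, ApoE-/- Timp3-/- minus ApoE-/- (y axis, log2(scaled FPKM + 1)), for the 42 tested genes (x axis) by complex, with 95% intervals as bars; open circles have a near-identical copy elsewhere in the genome and filled circles have none. Intervals that leave out 0 belong to Cox7c, Atp5g2, Atp5k and Cycs, all open, and after adjustment over all genes 0 of 42 passed.

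The level of the respiratory genes varied together from library to library within each genotype. Averaged over the 42 genes, the deviation from each gene's mean was 0.27, -0.02 and -0.15 on the log2 scale in the ApoE-/- Timp3-/- libraries and -0.18, 0.11 and -0.02 in the ApoE-/- libraries. Library 4 was the highest library for 25 of 42 genes (59.5%), against 24.1% of all genes tested and 51.5% of other genes with transcripts of up to 1000 nt. It was also the highest for 55.1% of other genes with a mean of at least 100 FPKM. Among other genes of up to 1000 nt at that level the share was 73%, above that of the respiratory genes. The high library 4 was seen for complex III (0.23), complex IV (0.27) and ATP synthase (0.29), and also for complex I subunits (0.30). Other genes of up to 1000 nt (0.25) and other genes with a mean of at least 100 FPKM (0.27) had it too, but not other genes over 1000 nt (-0.03). The median log2 difference of those other short genes was 0.18, and 0.32 where their mean was at least 100 FPKM. The red blood cell markers, 3 of 5 listed, summed to between 422 and 12517 FPKM in ApoE-/- Timp3-/- hearts and between 104 and 569.8 FPKM in ApoE-/- hearts, highest in library 4; their part in these values was not tested.

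**Figure D5:**
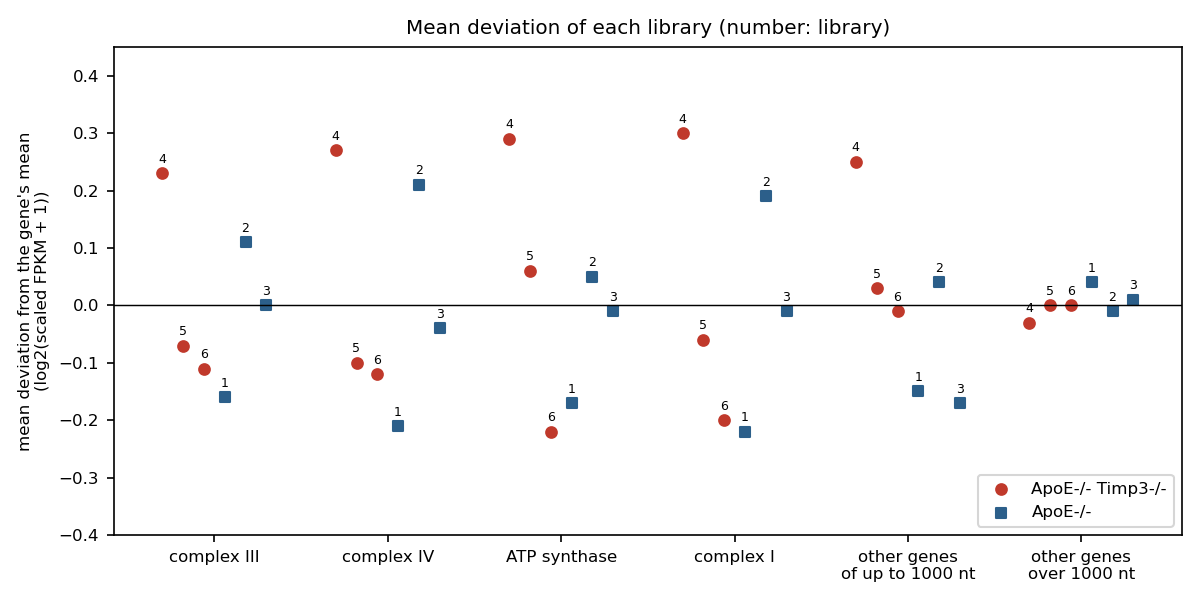
Mean deviation of each library from the gene's mean (y axis, log2(scaled FPKM + 1)) for each complex and for other genes by transcript length (x axis), with ApoE-/- Timp3-/- as red circles on the left and ApoE-/- as blue squares on the right, numbered by library. Library 4 is the highest for the 3 complexes, complex I and other short genes, and all 6 libraries lie near 0 for other genes over 1000 nt.

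Factors that build the complexes, and other mitochondrial genes, were described from lists, with counts at an unadjusted p under 0.05, which 6.94% of all genes passed as higher and 5.2% as lower, and with the share of differences above 0, which was 48.8% over all genes. No listed gene passed the adjusted threshold. Among 24 tested factors that assemble complex IV and bring it copper, 4 were lower and 0 higher, with a median of -0.16 and 17 of 24 below 0. Cox19, which helps deliver copper, was at 8.01, 5.49 and 6.15 FPKM in ApoE-/- Timp3-/- hearts and at 9.45, 11.4 and 8.19 FPKM in ApoE-/- hearts, without overlap, a log2 difference of -0.44 (SE 0.16, adjusted p = 0.35). Coa6, which acts in the same copper pathway, was at 6.36, 4.18 and 5.67 FPKM in ApoE-/- Timp3-/- hearts and at 9.05, 7.53 and 6.00 FPKM in ApoE-/- hearts, a log2 difference of -0.35 (SE 0.13, adjusted p = 0.38). The deposited values of Coa6 overlapped and the scaled values did not. The other 2 were Cmc2 (log2 difference -0.50) and Cox16 (-2.09). Cox16 had 8.75 FPKM in library 4 and a listed 0 in the other 2 ApoE-/- Timp3-/- libraries, against 7.18 to 10.1 FPKM in ApoE-/- hearts.

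For complex III, 6 assembly factors had a median of -0.04 with 0 at an unadjusted p under 0.05, among them Lyrm7, which helps insert the Rieske protein (0.17, adjusted p = 0.68), and Uqcc3 (-0.16, adjusted p = 0.83). For ATP synthase, 4 factors had a median of 0.10 with 0 past that limit, among them Tmem70, which helps build the ring of subunit c (0.14, adjusted p = 0.70, and 3.08 with adjusted p = 0.53 on reference transcripts alone), and Atpaf1, a chaperone of the catalytic head (0.81, adjusted p = 0.74), which was listed at 0 in 1 ApoE-/- Timp3-/- and 2 ApoE-/- libraries. Of 7 partner proteins, 0 passed and the median was -0.10, with Ndufa4l2 at -0.43 (adjusted p = 0.51) and Hccs, which attaches haem to the cytochromes, at -0.14 (adjusted p = 0.78).

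Complex I, which feeds electrons into the same chain, had 36 tested subunits with a median of 0.04, 1 higher and 1 lower, a smaller share in each direction than over all genes (6.94% and 5.2%). Ndufs1, its largest iron-sulfur subunit, was at 315, 326 and 344 FPKM in ApoE-/- Timp3-/- hearts and at 290.2, 247 and 273 FPKM in ApoE-/- hearts (log2 difference 0.36, SE 0.14, adjusted p = 0.38). Ndufc1, a small membrane subunit, was at 36.1, 27.0 and 23.3 FPKM in ApoE-/- Timp3-/- hearts and at 43.7, 48.0 and 34.9 FPKM in ApoE-/- hearts (log2 difference -0.47, SE 0.18, adjusted p = 0.38). Complex II had a median of 0.06 over 4 subunits with 0 past the limit, with Sdha at 0.20 (adjusted p = 0.62) and Sdhd at 0.08 (adjusted p = 0.84). Among 11 genes used as a gauge of mitochondrial content 10 were above 0, against 48.8% of all genes, and the median was 0.18, with 1 higher and 1 lower, Vdac3, an outer membrane channel, at 0.40 (adjusted p = 0.29) and Tomm22, a receptor for imported proteins, at -0.48 (adjusted p = 0.36). Library 4 was the highest for 8 of the 11. Their mean deviation was 0.33, -0.05 and -0.04 in the ApoE-/- Timp3-/- libraries and -0.23, 0.05 and -0.06 in the ApoE-/- libraries. The median was also 0.18 both for genes of up to 1000 nt and for genes with a mean of at least 100 FPKM, the respiratory set left out.

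Of 15 regulators of these genes, 0 passed the unadjusted limit, and the median was 0.05. Ppargc1a, the coactivator that drives mitochondrial gene expression, was at 8.74, 15.9 and 13.2 FPKM in ApoE-/- Timp3-/- hearts and at 12.2, 6.50 and 8.26 FPKM in ApoE-/- hearts, a log2 difference of 0.52 (SE 0.27, adjusted p = 0.50). The difference was 0.29 without library 5 and 0.78 without library 4. Its groups overlapped, and library 4, the highest for most respiratory genes, was the lowest of its group. Gabpb1, a partner of the ETS factor GABPA, had a log2 difference of 0.16 (adjusted p = 0.66).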

How the data were processed

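The authors deposited a file of assembled and reference transcripts per library, each transcript with an FPKM and a coverage, as the files' attribute column shows. Per the submitters' processing notes, TopHat, Bowtie and Cufflinks were used with NCBIM37; versions, settings, read length and strandedness are not given in sources used here. FPKM were summed by gene over reference transcripts and assembled transcripts of at least 300 nt, and libraries were scaled by the median of ratios. An assembled transcript was given to a gene where the shared exon bases made up at least 50% of the transcript or of the gene. Genes with a mean of at least 1 FPKM were tested with limma 3.58.1 (R 4.3.3) on log2(scaled FPKM + 1) with a trend on intensity, and p-values were adjusted over all genes by Benjamini-Hochberg; the pseudocount of 1 understates differences of low genes. The script was tested on simulated data. Copies were found with BLAST 2.17.0. No counts or depth per gene are in the files, so no count test was run. Statistics are given for the tested isoform genes of Cox4, Cox6a, Cox6b, Cox7a (Cox7a2l included) and Cox8, for Cyc1 and Cycs, and for the 4 genes of each complex and the 2 of each list with the smallest p. Atp5o was summed over 2 gene identifiers, and Atp5md is listed as Usmg5 by GENCODE. The members and lists were chosen with earlier results of these data known. A ratio of Cox4i2 to Cox4i1 was planned and is not reported here.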

Additional observations from a re-analysis of the deposited data

How the results depend on the processing

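No paired analysis was possible because the libraries are numbered 1 to 6 and the genotypes share no number. The count of respiratory genes past the adjusted threshold was 0 under 20 of 22 alternatives, and 1 with reference transcripts alone and 1 with the strongest transcript of each gene; that gene was Atp5md, whose reference transcript was listed at 0 in ApoE-/- Timp3-/- hearts. Over all genes, 5 passed in the reported fit, between 1 and 22 under the other alternatives and 101 where libraries were weighted by their spread. Of the 22 alternatives, those on pieces of any length, on aligned bases, on the reads of copies, on scaling by genes of up to 1000 nt and on leaving out libraries 1 and 4 together were chosen after seeing the data. The 36 genes named with statistics gave 788 values under them, of which 65 had the other direction and 0 passed the threshold (lowest adjusted p 0.07); 19 genes kept their direction throughout.

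The medians of the log2 differences became -0.11 for complex III, -0.11 for complex IV and -0.11 for ATP synthase with quantile normalization. With the same total FPKM over genes in each library they were -0.12 for all respiratory genes, -0.12 for complex III, -0.15 for complex IV and -0.11 for ATP synthase. All genes tested then had a median of -0.16. Scaled by genes of up to 1000 nt they were -0.16 for all respiratory genes, -0.16 for complex III, -0.19 for complex IV and -0.15 for ATP synthase, but all genes tested then had a median of -0.19. Without libraries 1 and 4 together they were -0.12 for all respiratory genes, -0.12 for complex III and -0.13 for complex IV, the log2 ratio Cox6a2/Cox6a1 differed by -0.16 and that of Cox8b/Cox8a by -0.05. With reference transcripts alone the log2 ratio Cox8b/Cox8a differed by -0.16, as it did with the strongest transcript (-0.16). Leaving out each library in turn gave -0.07 to 0.43 for the log2 ratio Cox6a2/Cox6a1 and 0.03 to 0.55 for the log2 ratio Cox8b/Cox8a. Scaling by total FPKM or by short genes divides each library by a single factor, which shifts all genes together. The median of the respiratory genes minus that of all genes was 0.04 and 0.03 there, against 0.08 in the reported fit. It was -0.10 with quantile normalization and -0.12 without libraries 1 and 4. The cause of the other changes was not tested.

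Log2 differences of single genes that took the other direction were as follows. With the same total FPKM and scaled by short genes, the median of all genes had shifted down too. With quantile normalization they were -0.10 for Atp5g3, -0.15 for Cox6a1, -0.11 for Cox6a2, -0.10 for Cox7a2, -0.05 for Cox7a2l, -0.04 for Cox8b, -0.02 for Uqcrb, -0.02 for Tmem70 and -0.10 for Sdhd. With the same total FPKM they were -0.18 for Cox6a1, -0.08 for Cox7a2, -0.11 for Cox7a2l, -0.08 for Cox8b, -0.04 for Uqcrb, -0.01 for Uqcrc1, -0.02 for Uqcrc2, -0.05 for Tmem70 and -0.11 for Sdhd. Scaled by genes of up to 1000 nt they were -0.22 for Cox6a1, -0.11 for Cox7a2, -0.15 for Cox7a2l, -0.12 for Cox8b, -0.08 for Uqcrb, -0.05 for Uqcrc1, -0.06 for Uqcrc2, -0.02 for Lyrm7, -0.09 for Tmem70, -0.03 for Sdha, -0.15 for Sdhd and -0.02 for Gabpb1. Without libraries 1 and 4 together they were -0.12 for Cox6a2, -0.01 for Cox7a2, -0.06 for Cox7a2l, -0.46 for Cox8b, -0.03 for Uqcrc1, -0.09 for Uqcrc2 and -0.05 for Sdhd. Cox6a1 was at -0.06 with no further scaling and at -0.03 with a mean of at least 5 FPKM. With reference transcripts alone they were -0.00 for Cox6a1, -0.03 for Cox7a2l, 0.25 for Cox8a, 0.18 for Hccs and -0.02 for Sdhd, and with the strongest transcript -0.01 for Cox6a1, -0.04 for Cox7a2l, 0.24 for Cox8a, 0.26 for Hccs, -0.03 for Sdhd and -0.15 for Gabpb1. Pieces of any length gave 0.17 for Cox6b1, -0.13 for Cox8b and -0.67 for Uqcrb, aligned bases gave 0.09 for Cox6b1, -0.06 for Cox8b and -0.39 for Uqcrb, and weighted libraries gave -0.11 for Cox8b. Over single libraries left out, the values were -0.17 to 0.18 for Cox6a1, -0.12 to 0.12 for Cox6b1, 0.01 to 0.38 for Cox6a2, -0.37 to -0.01 for Cox7a1, -0.54 to -0.17 for Cox4i2, -0.02 to 0.21 for Cox7a2l, -0.20 to 0.37 for Cox8b and -0.01 to 0.25 for Uqcrb. A ratio of Cox4i2 to Cox4i1 was not run. Depth per gene is unknown, and 3 libraries a group left a median standard error of 0.17 on the log2 scale for the respiratory genes.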
